A study of Mus musculus with 26 samples.

Results

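Intermediate progenitors of the mouse cortex were picked from 8 libraries of cortical nuclei collected at E15.5 by 6 marker genes. A nucleus was a member when it carried at least 1 unique molecular identifier (UMI, a tag that marks each captured RNA molecule) of Eomes, at least 3 UMIs summed over Eomes, Neurog1, Neurog2, Gadd45g, Btbd17 and Smoc1, and at most 2 UMIs summed over the cell division genes Top2a, Mki67, Cenpf, Kif11, Kif15 and Knl1. By this rule 2490 of 43456 nuclei with at least 500 UMIs and 200 genes were members, or 5.73%. The libraries came from prospective somatosensory cortex of male embryos whose dams received saline or Poly(I:C) intraperitoneally at E12.5. Poly(I:C) imitates the RNA of a virus and was used for maternal immune activation (MIA). The 4 groups were wild type after saline, wild type after MIA, Csf1r-null after saline and Csf1r-null after MIA, with 2 libraries each. The Csf1r-null embryos carried the Csf1r-/- allele in every cell on a C57Bl/6N background, and serve as embryos without microglia, since these cells depend on the receptor that Csf1r encodes. Nuclei were sorted from frozen tissue, so the values describe nuclear RNA and the p-values measure the spread between these libraries. The embryos came from few dams, with wild-type embryos as littermates of the Csf1r-null ones. The dam behind each library is not given in the sources used here, so libraries of 1 treatment may share a litter and need not be independent samples of it.

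Intermediate progenitors are born from apical progenitors at the ventricle, settle in the subventricular zone and divide there to give pairs of cortical glutamatergic neurons. The switch is driven by the proneural factors Neurog1 and Neurog2 and then by the T-box factor Eomes (also called Tbr2). The cells lose the Notch-maintained state of apical progenitors while they present Notch ligands to their neighbours. Neurons that leave this stage turn on Neurod1, then Neurod2, Neurod6 and Tbr1.

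Csf1r itself was counted 23, 11, 23 and 1 times over all nuclei of the 4 wild-type libraries (saline 1 and 2, MIA 1 and 2) and 4, 10, 2 and 1 times in the Csf1r-null libraries in the same order. The deleted part of the gene is not given in the sources used here, so its 3' tags may not check the allele. The sum of 12 microglia markers was 495, 283, 356 and 49 UMIs in the wild-type libraries and 102, 208, 66 and 71 UMIs in the Csf1r-null libraries. The library labelled wild-type MIA replicate 2 therefore stood with the Csf1r-null libraries, while that labelled Csf1r-null saline replicate 2 stood nearer to the wild-type ones. Both were kept under their labels. Values without them are given for the shares and most gene list medians, and for only part of the named genes. Without the 2, wild type after MIA and Csf1r-null after saline keep 1 library each. The lone library is then assumed to vary like those of the groups that keep 2. Libraries held 4552 to 6198 nuclei and 9897721 to 17605575 UMIs. Replicate number was also a processing batch, since the file headers name Cell Ranger 3.1.0 for every replicate 1 and 6.0.1 for every replicate 2. In wild-type saline replicate 1, 28.3% of nuclei held at least 2 UMIs of interneuron markers, against 3.95% to 6.58% in the other libraries. Barcodes shared by more than 1 library numbered 236 and covered 473 nuclei, 25 of them members.

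The members were found in every library. They numbered 229 and 233 after saline and 385 and 424 after MIA in wild type, and 345 and 235 after saline and 315 and 324 after MIA in Csf1r-null. The median member held between 1465 and 2683 UMIs by library, and the members of a library summed to between 363873 and 991876 UMIs. By construction Eomes was present in every member. Neurog2 was detected in 87.6% of members, Gadd45g (a growth arrest and DNA damage gene downstream of proneural factors) in 61.1%, Btbd17 in 33.8%, Neurog1 in 16.7% and the secreted calcium-binding protein Smoc1 in 10.2%. The same markers were detected in 11.7%, 8.78%, 2.74%, 1.02% and 1.09% of the other nuclei, and Eomes in 4.32%. These values chose the members and are descriptions.

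Most members carried more than the rule asked for. The median marker sum was 7 UMIs and the highest 47. The commonest combination was Eomes with Neurog2 and Gadd45g, in 650 members (26.1%), followed by Eomes with Neurog2 alone in 444 (17.8%) and by these 3 with Btbd17 in 299 (12.01%). Eomes without any other marker was found in 71 members (2.85%). At the edge of the rule, 355 members had a marker sum of 3, and 482 nuclei with Eomes stood just outside it at a sum of 2. Eomes had 1 UMI in 969 members and at least 2 in 1521. A further 1218 nuclei had a marker sum of at least 3 and no Eomes UMI, and were not members. On the division side, 1873 members had no UMI of the 6 division genes and 166 had the 2 UMIs allowed. Nuclei that met the marker rule but had 3 or more division UMIs, named dividing Eomes nuclei, numbered 469.

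Interneurons, which are not expected to make Eomes, give a background for its detection. In 1474 nuclei with at least 2 UMIs of Gad1 and Gad2, which mark interneurons, 2.92% carried an Eomes UMI (exact Clopper-Pearson 95% interval 2.12% to 3.91%, median depth 2422.5 UMIs). The share that met the whole member rule there was 1.02% (0.571% to 1.67%). Over all nuclei, at a median depth of 2064 UMIs, these shares were 9.80% and 5.73%. Nuclei with at least 3 UMIs of neuron genes and no Gad1 or Gad2 UMI, at a median depth of 2432 UMIs, stood between: of 26741 such nuclei 6.79% carried Eomes (6.49% to 7.10%) and 1080 (4.04%) met the member rule, so 1080 of the 2490 members also met this young neuron threshold. Of the interneuron nuclei 15 were members, and 39 members had any Gad1 or Gad2 UMI. Free RNA and doublets cannot be told apart in these UMIs, and intervals cover counting error only.

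Levels of genes outside the rule were compared between members and other nuclei. For comparison, 3054 apical progenitor nuclei had at least 3 UMIs of Sox2, Pax6, Hes1, Hes5, Slc1a3 and Fabp7, and 23948 young neuron nuclei at least 3 over a set of neuron genes with Neurod2, Neurod6, Tbr1 and Bcl11b among them, none of them with Eomes. Levels are given in CPM, the UMIs of a gene per 1000000 UMIs summed over the nuclei of a class in a library. Of 4332 genes at 50 CPM or more in members, 1628 outside the rule were higher in members than in all other nuclei in 8 of 8 libraries. Of these 274 were at least 2-fold and 39 at least 4-fold higher. Of 2002 genes at 100 CPM or more in other nuclei, 513 outside the rule were lower in members in 8 of 8 libraries, 71 of them at least 4-fold. Since membership was chosen on RNA of the same nuclei, these contrasts have no test.

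Among genes at 50 CPM or more in members the largest fold was that of Kif26b. Kif26b (chr1:178529125-178939200), an atypical kinesin that acts in Wnt5a signalling and cell adhesion, was at 112 ± 38.3 CPM in members and 9.01 ± 2.12 CPM in other nuclei (SD, n = 8), a 12.4-fold difference. Its level was 9.51 CPM in apical progenitor nuclei, 98.7 CPM in dividing Eomes nuclei and 4.06 CPM in young neuron nuclei, so it was high in both Eomes classes and low on either side. Celsr1, a planar polarity cadherin, was at 326 ± 59.3 CPM against 42.8 ± 6.22 CPM. The unconventional myosins Myo10 (213 against 32.0 CPM) and Myo6 (128 against 22.0 CPM) and the scaffold Magi1 (513 against 100.3 CPM) were 6.66-fold, 5.81-fold and 5.11-fold higher. All 5 genes were higher in each of the 8 libraries. Myo6 was also at 114 CPM in apical progenitor nuclei and exceeded that level in 6 of 8 libraries, while Celsr1 and Magi1 exceeded it in 8 of 8. Dividing Eomes nuclei held 234 CPM of Myo10, and members exceeded them in 4 of 8 libraries.

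Btg2, Chd7 and Zc3h12c were also among the 20 leading genes. Btg2, an antiproliferative gene whose expression marks neurogenic divisions, was at 585 ± 48.3 CPM in members, with 523 CPM in the lowest library and 657 CPM in the highest. Other nuclei held 80.6 ± 14.1 CPM. By class Btg2 was at 212 CPM in apical progenitor nuclei, 490 CPM in dividing Eomes nuclei and 45.5 CPM in young neuron nuclei. Chd7, a chromatin remodeller, was at 311 ± 78.3 against 48.6 ± 10.4 CPM. Zc3h12c, of a family of RNA-binding zinc finger proteins, was at 225 ± 34.3 against 36.1 ± 6.91 CPM. The S phase genes, by contrast, were only modestly higher: 9 of 20 measured genes of that list were higher in 8 of 8 libraries, and the list's median log2 difference was 0.48. Over all 8239 genes measured the same was true of 27.5% of genes, with a median of 0.14. The rule caps division genes in members and leaves dividing Eomes nuclei among the others, so the choice of members may partly set this difference.

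The remaining leading genes had varied roles. Mfap4, a microfibril-associated glycoprotein, was at 645 ± 79.8 CPM in members against 102 ± 38.8 CPM. Serping1, the C1 complement inhibitor, was at 55.2 ± 12.4 against 8.38 ± 1.55 CPM. Lrrn3, a leucine-rich repeat membrane protein, was at 235 ± 49.8 against 38.6 ± 7.997 CPM. Heg1 (238 against 41.8 CPM), the rhomboid family member Rhbdl3 (114 against 11.9 CPM), the peroxisomal fatty acid transporter Abcd2 (167 against 29.2 CPM) and the carbonic anhydrase Car14 (57.5 against 10.96 CPM) were leading genes too. Car14 was at 57.6 CPM in apical progenitor nuclei, and the members exceeded it in 5 of 8 libraries. In dividing Eomes nuclei Car14 was at 81.2 CPM, which members exceeded in 2 of 8. Mfap4, Lrrn3, Serping1 and Abcd2 exceeded both apical progenitor and young neuron nuclei in 8 of 8 libraries.

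**Figure D1:**
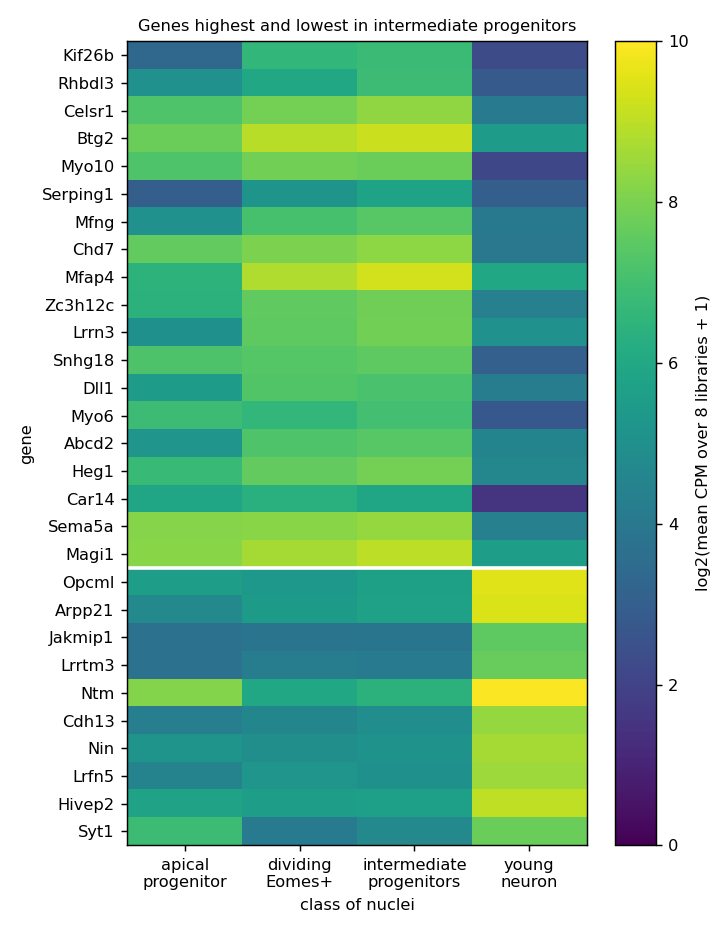
Heat map of 19 of the 20 leading genes higher in intermediate progenitors (members, above the white line) and the 10 lower ones, by class of nuclei. Colour is log2 of the mean CPM over 8 libraries plus 1, so a reader should see Kif26b bright in the dividing Eomes nuclei (98.7 CPM) and in members (112 CPM) but dark in apical progenitor and young neuron nuclei, and Opcml bright in young neuron nuclei alone (732 CPM).

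A pair of these genes start close to each other. The long noncoding RNA Snhg18 and Sema5a, a transmembrane semaphorin with guidance roles, are read in opposite directions from starts at positions 32244662 (minus strand) and 32244813 (plus strand) of chromosome 15. In members Sema5a was at 346 and 261 CPM in wild type after saline, 426 and 275 after MIA, and 388, 382, 357 and 286 CPM in the Csf1r-null libraries. Snhg18 was at 201 and 175 CPM, 193 and 122 CPM, and then 180, 206, 142 and 242 CPM in the same order. Other nuclei held 49.4 to 79.0 CPM of Sema5a and 19.5 to 45.4 CPM of Snhg18. The 2 genes had high apical progenitor levels too, 291 CPM for Sema5a and 149 CPM for Snhg18, and were at 19.7 and 7.45 CPM in young neuron nuclei. The 150 bases between the starts (chr15:32244663-32244812, plus strand, RefSeq on GRCm38.p6) are shown because they lie between the starts of both genes. Capitals mark each match to GGGCGG, the GC box, on either strand, and the 5 boxes stand in a stretch with 79.3% G and C and 15 CG pairs.
Snhg18 and Sema5a: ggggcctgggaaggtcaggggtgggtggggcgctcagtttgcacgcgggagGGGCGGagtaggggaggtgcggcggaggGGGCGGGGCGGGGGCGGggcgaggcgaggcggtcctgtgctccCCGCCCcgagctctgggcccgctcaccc

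Promoter windows from 250 bases before to 50 bases after each RefSeq start were found for 11 of the 20 leading genes and 5 of the 6 rule markers. GGGCGG, on either strand, was in 9 of 15 windows of the leading genes (60%), in 4 of 22 windows of the genes that were lower (18.2%) and in 35.6% of all 32817 windows. A gene can have several windows, and counted by gene it was in 9 of 11 leading genes and in 4 of 9 of the lower genes. The windows of Snhg18 and Sema5a overlap and hold the same 5 boxes, so 1 stretch counts for both genes. No share by gene was counted over all genes. It was also in 2 of 5 windows of the rule markers. CAGATG, an E-box form that proneural factors can bind, was in 3 of 15 windows of the leading genes (20%, from 2 of 11 genes), in 0 of 5 windows of the rule markers, in 4 of 22 windows of the lower genes and in 17.2% of all windows. The general E-box CANNTG, which includes CAGATG, was in 8 of 15 windows of the leading genes (53.3%), in 2 of 5 of the rule markers, in 21 of 22 of the lower genes (95.5%) and in 72.3% of all windows. Counted by gene, CANNTG was in 5 of 11 leading and 9 of 9 lower genes, and CAGATG in 2 of 9 lower genes. Several windows of the lower gene Arpp21 overlap, so some of its bases count more than once. The T-box site AGGTGTGA was in 0 of these 15 and 0 of these 5 windows and in 1.27% of all. These counts describe letters within short windows only.

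Among genes at 100 CPM or more in other nuclei Opcml was lower by the largest fold. Opcml and Ntm, adhesion proteins of the IgLON family, were at 50.3 ± 21.4 against 562 ± 136 CPM and 85.5 ± 27.3 against 790 ± 169 CPM, which was 11.2-fold and 9.25-fold lower in members. Arpp21, a neuronal phosphoprotein, was 10.2-fold lower (51.8 against 526 CPM). Of the synaptic genes among the 10, Lrrtm3 was at 15.9 against 156 CPM, Lrfn5 at 31.5 against 278.6 CPM and the synaptic vesicle calcium sensor Syt1 at 24.8 against 202 CPM. Jakmip1, Cdh13, Nin and the transcription factor Hivep2 were between 8.29-fold and 9.98-fold lower. Ntm and Syt1 were also higher in apical progenitor nuclei than in members in 8 of 8 libraries, at 278.9 and 115 CPM. The other 8 genes of the 10 were at 53.1 CPM or less in apical progenitor nuclei.

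The label was checked against lists of genes that the rule had not used. A gene counts as measured here at a mean of 20 CPM or more in members or in other nuclei. Of 30 measured genes of 34 in a list of neurogenic and intermediate progenitor genes, 24 were higher in members in 8 of 8 libraries and 4 were lower, with a median log2 difference of 1.39 against 0.14 over all genes. Insm1, a zinc finger factor that drives progenitors away from the ventricle, was at 416 ± 33.2 CPM in members and 168 ± 17.7 CPM in other nuclei. Neurod4, a proneural factor, was at 33.5 ± 8.28 against 1.36 ± 0.639 CPM, and the somatostatin receptor Sstr2 was at 390 ± 56.7 against 120 ± 23.5 CPM. Neurod1 was 2.03-fold higher (128 ± 28.1 against 62.7 ± 11.7 CPM). The 4 lower genes, Sox11, Cux2, Pdzrn3 and Bhlhe22, are ones that young neurons also express. Of 16 postmitotic neuron markers 15 were lower in 8 of 8 libraries, and the exception was Rbfox3 (174 ± 47.7 against 86.8 ± 16.1 CPM), a splicing factor used as a neuronal marker. Of 14 measured apical progenitor markers of 16, 6 were higher in members in 8 of 8 libraries (Pax6, Vim, Fabp7, Sox9, Aldoc and Ddah1) and 2 were lower (Hes1 and Ptprz1), with a median log2 difference of 0.47. Over all genes measured 27.5% were higher and 16.7% lower in 8 of 8 libraries. Pax6 was at 513 ± 78.3 CPM in members, 153 ± 31.1 CPM in other nuclei and 904 CPM in apical progenitor nuclei. None of 12 microglia and 8 vascular markers reached the measured level. The microglia markers still summed to 55.3 CPM in members of wild-type saline replicate 2, against 22.3 CPM in its other nuclei. In members of the other libraries they summed to 1.13 to 10.1 CPM. Of 8 measured interneuron markers 7 were lower in 8 of 8 libraries, and the 10 markers of that list summed to 353 CPM in members of wild-type saline replicate 1 and to 79.2 to 113 CPM in those of the other libraries.

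Among Notch pathway genes, ligands and modifiers were higher in members, and the effectors Hes1 and Hes5 differed from each other. Of 15 measured pathway genes 11 were higher in members in 8 of 8 libraries and 2 were lower, against 27.5% higher and 16.7% lower over all genes measured. The ligand Dll1 was at 139 ± 27.2 CPM in members, 23.8 ± 4.44 CPM in other nuclei and 45.4 CPM in apical progenitor nuclei. Dividing Eomes nuclei held 153 CPM of Dll1, and members exceeded them in 3 of 8 libraries. Dll3, a ligand-like protein that acts within the cell, was at 86.1 ± 21.9 against 24.1 ± 4.83 CPM. The glycosyltransferase Mfng was at 170 ± 16.8 against 26.2 ± 6.04 CPM, and Hes6, which opposes Hes1, was at 691 ± 82.8 against 147 ± 27.0 CPM. The receptor Notch1 was at 116 ± 20.2 against 36.1 ± 7.95 CPM. Hes1, the main effector in apical progenitors, was at 28.3 ± 3.79 CPM in members, 64.9 ± 16.5 CPM in other nuclei and 477 CPM in apical progenitor nuclei, which Hes1 helped to choose. Hes5, another effector, was at 79.4 ± 19.3 CPM in members, 65.2 ± 24.2 CPM in other nuclei and 539 CPM in apical progenitor nuclei, which it also helped to choose. It was higher in members than in other nuclei in 5 of 8 libraries and lower in 3. Notch2 was at 66.7 CPM in members and 505 CPM in apical progenitor nuclei.

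Members differed in which apical progenitor and neuron factors were detected. To compare nuclei at equal depth each member was thinned to 1000 UMIs, which left out 231 shallower members and kept 2259. A UMI of the apical factors Sox2, Pax6, Hes1 or Hes5 without any of the neuron factors Neurod2, Neurod6, Tbr1 or Bcl11b was found in 449 members (19.9%, 17.1% to 23.5% by library). Neuron factors alone were found in 815 (36.1%, 30.2% to 45.5%), both in 621 (27.5%, 22.6% to 32.0%) and neither in 374 (16.6%, 10.2% to 22.6%). Many members lay at the edge of a class, with exactly 1 UMI of the apical factors in 614 and exactly 1 of the neuron factors in 660. A single UMI is weak evidence here. In 1408 interneuron nuclei outside the members, thinned alike, 31.8% had a UMI of the apical factors (exact 95% interval 29.4% to 34.3%) and 53.8% one of the neuron factors (51.2% to 56.5%), against 47.4% and 63.6% of members. The median depth before thinning was 2454.5 UMIs in these interneuron nuclei and 2161 in the members. By library the neuron factor shares of interneuron nuclei (37.04% to 62.1%) and members (53.8% to 72.7%) overlapped. A neuron factor UMI alone thus does not set a member apart from these nuclei and is not read as expression. Whether the interneuron nuclei themselves express some of the apical or neuron factors was not tested. Neurod6 alone made up 939 to 1225 CPM of the barcodes under 100 UMIs in the replicate 1 libraries.

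**Figure D2:**
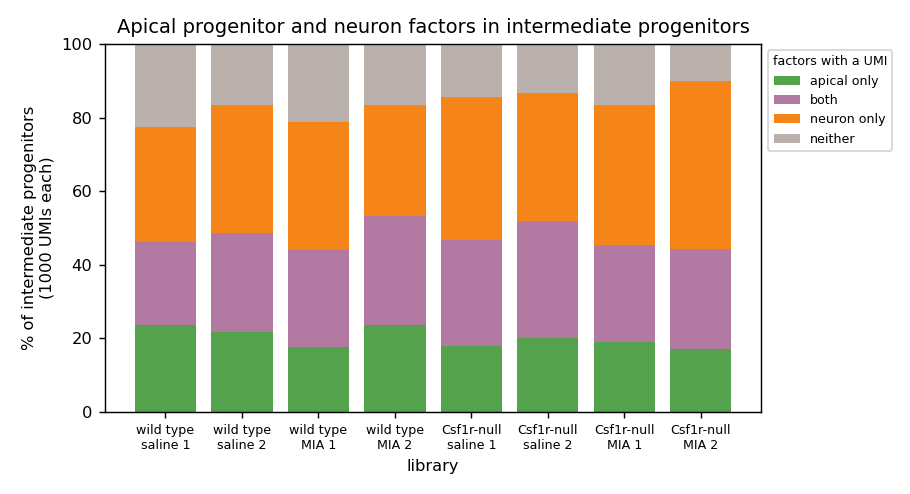
Percent of members thinned to 1000 UMIs that carried apical factors only, both, neuron factors only, or neither, in each of the 8 libraries. Members with neuron factors only were 30.2% to 45.5% of a library and members with apical factors only 17.1% to 23.5%.

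Levels of genes that took no part in this split are given for both classes, as a description. Insm1 was at 655 CPM in apical-only members (437 to 821 by library) and at 271 CPM in neuron-only members (202 to 334), higher in apical-only members in 8 of 8 libraries. The same direction in 8 of 8 libraries was seen for Dll1 (236 against 75.4 CPM), Hes6 (865 against 524 CPM), Btg2 (898 against 440 CPM), Ccnd2, a G1 cyclin (729 against 470 CPM), and Notch1 (183 against 74.8 CPM). In the other direction Neurod1 was at 69.8 CPM in apical-only members and 187 CPM in neuron-only members. Unc5d, a netrin receptor of multipolar migrating cells, went from 53.7 to 221 CPM, Sstr2 from 278 to 431 CPM, Rnd2, a small GTPase of migration, from 122 to 206 CPM, and Mfap4 from 473 to 670 CPM. The chemokine Cxcl12, which draws Cxcr4-bearing interneurons, was at 51.6 CPM in apical-only members and 158 CPM in neuron-only members, and at 112 ± 29.3 CPM in all members against 38.1 ± 6.76 CPM in other nuclei. All 6 of these genes were higher in neuron-only members in 8 of 8 libraries. Neurod4 (35.3 and 34.5 CPM), Mfng (164 and 157 CPM) and Elavl4 (657 and 641 CPM) split evenly, with 4 of 8 libraries in each direction.

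Receptors for cytokines and Poly(I:C) could carry a dam's immune response to the embryo's cells. Of 21 such genes 6 were at a measured level, beside 8239 of all 30406 genes, with 2 of them higher and 1 lower in 8 of 8 libraries, against 27.5% and 16.7% of all genes measured. Ifnar1, a chain of the type I interferon receptor, was at 74.8 ± 15.6 CPM in members and 75.6 ± 6.37 CPM in other nuclei. Ifngr2, a chain of the interferon gamma receptor, was at 75.9 ± 16.7 against 149 ± 26.1 CPM. Tlr3, the receptor for double-stranded RNA, was read 16 times in all members and Il17ra, the receptor for interleukin 17, 39 times. Summed over the list, members held 527 to 643 CPM by library and other nuclei 522 to 622 CPM.

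The first comparison asked whether MIA or genotype changed how many nuclei were intermediate progenitors. Members were 4.88% and 5.01% of nuclei in wild type after saline, 6.33% and 7.98% in wild type after MIA, 5.74% and 3.94% in Csf1r-null after saline, and 6.92% and 5.23% in Csf1r-null after MIA. Between libraries of the same genotype and replicate number the MIA library was higher in 4 of 4 pairs. The mean was 6.62% ± 1.15 after MIA and 4.89% ± 0.739 after saline (SD, n = 4), a difference of 1.72 percentage points that did not pass a two-sided exact permutation test within genotype (p = 0.111, where the smallest p possible is 0.0556). Interneuron-marker nuclei were 28.3% of wild-type saline replicate 1. Without nuclei of that kind the wild-type shares were 6.45% and 5.27% after saline and 6.77% and 8.29% after MIA, so that the replicate 1 libraries stood close, and the difference over all libraries was 1.48 points (exact permutation p = 0.167). At 1000 UMIs per nucleus the means were 3.93% and 2.68% (exact permutation p = 0.111). Within replicate 1 the difference was 1.31 points and within replicate 2 it was 2.13 points, with an exact permutation p of 0.125 under a replicate block, the smallest that block allows. Without both libraries that stood against their labels it was 0.948 points (exact permutation p = 0.222). The share of a cell type can change through its own number or through that of the other cells, and these cannot be told apart here.

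**Figure D3:**
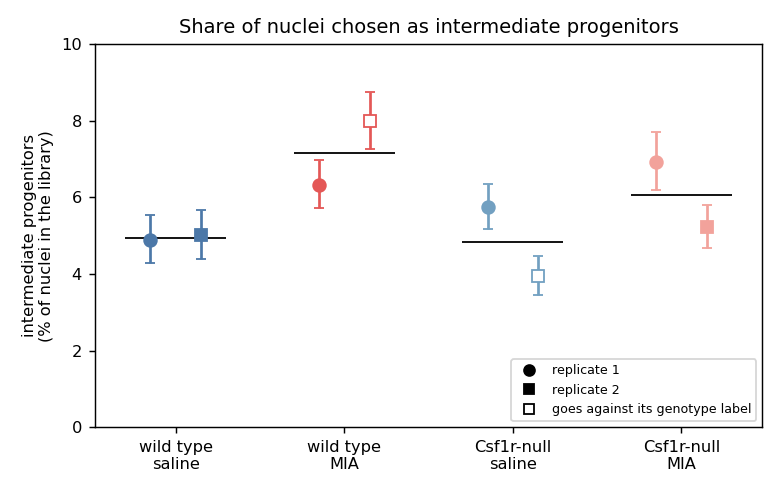
Members as percent of nuclei in each library, by group, with exact 95% intervals for counting error, lines at the group means and open symbols for the libraries against their labels. The wild-type MIA libraries sit at 6.33% and 7.98%, above the wild-type saline libraries at 4.88% and 5.01%, and in Csf1r-null the share was 5.74% and 3.94% after saline and 6.92% and 5.23% after MIA (replicates 1 and 2), higher after MIA within each replicate number. Without nuclei with interneuron markers the wild-type replicate 1 libraries were at 6.45% after saline and 6.77% after MIA.

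By genotype the mean share was 5.46% ± 1.23 in Csf1r-null and 6.05% ± 1.45 in wild type (SD, n = 4), a difference of -0.593 points with an exact permutation p of 0.389, and of -1.02 points without nuclei with interneuron markers (exact permutation p = 0.222). It was 0.726 points within replicate 1 and -1.91 points within replicate 2. The sign turned when the library labelled wild-type MIA replicate 2 was left out (0.0516 points), and when both libraries against their labels were left out (0.557 points). The smallest exact permutation p possible over all libraries was 0.0556 here too.

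Detection of apical and neuron factors in members was also compared after MIA and saline, in a test whose smallest possible p is 0.0556 (0.125 under the replicate block), so that a threshold of 0.05 could not be passed. Apical factors were found in 46.7% ± 4.41 of thinned members after MIA and 48.3% ± 2.62 after saline (SD, n = 4, exact permutation p = 0.556). Neuron factors were found in 64.6% ± 5.74 and 62.6% ± 6.36 (exact permutation p = 0.5). Neurod1 was detected in 10.6% ± 2.31 and 8.14% ± 1.82 (exact permutation p = 0.111, 0.333 after adjustment over 4 measures). By pair it was in 9.50% and 9.86% (saline, then MIA) and 8.26% and 8.29% in wild type and in 9.27% and 13.8% and 5.52% and 10.5% in Csf1r-null, higher after MIA in 4 of 4 pairs (exact permutation p = 0.125 under the replicate block). In the interneuron nuclei it was in 0.852%. S phase genes were detected in 61.9% ± 4.04 and 65.8% ± 1.98 (exact permutation p = 0.167, 0.333 adjusted), and in 48.3% of the interneuron nuclei. The wild-type pairs of Neurod1 turned at other depths. At 1500 UMIs Neurod1 was in 16.5% and 13.4% and in 15.7% and 14.3% of wild-type members (saline, then MIA), and without thinning in 24.5% and 20.0% and in 18.9% and 13.2%. The Csf1r-null pairs stayed higher after MIA at both depths, and without thinning the means were 18.0% after MIA and 17.1% after saline. The S phase difference was -3.92 points at 1000 UMIs and 1.18 points at full depth. Without both libraries against their labels the 4 differences were -2.68, 5.01, 2.39 and -2.11 points (apical factors, neuron factors, Neurod1 and S phase genes), where the smallest possible exact permutation p is 0.111.

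The second comparison asked which genes of the members responded to MIA in wild type. Of 9403 genes tested on UMIs summed per library, 0 (0%) passed an adjusted p of 0.05 in edgeR's quasi-likelihood test, and 487 (5.18%) had an unadjusted p under 0.05, 180 higher and 307 lower after MIA. The smallest adjusted p was 0.925. DESeq2 called 0 genes. With the replicate number as a block, edgeR called 2: Dqx1, at 0 and 1.91 CPM after saline and 36.3 and 24.7 CPM after MIA, and the histone gene Hist1h2ap, at 53.8 and 263 CPM and then 19.2 and 72.8 CPM (both adjusted p = 0.0401). The log2 difference of Hist1h2ap without a block was -1.86, and -0.25 without wild-type saline replicate 2. In Csf1r-null members Dqx1 was at 31.9 and 2.75 CPM after saline and 28.3 and 10.8 CPM after MIA.

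The genes nearest the threshold in wild type are given with their values. Nes (chr3:87971078-87980451), which encodes the progenitor intermediate filament nestin, was at 33.2 and 38.1 CPM after saline and 108 and 58.0 CPM after MIA, a log2 difference of 1.18 ± 0.32 (SE). It was 0.69 without wild-type MIA replicate 1 and 1.53 without both libraries against their labels, and Csf1r-null members held 49.5 to 89.4 CPM. Jun, an immediate early transcription factor, was at 63.3 and 70.6 CPM and then 115 and 146 CPM (0.91 ± 0.27, and 0.71 without both libraries). C1galt1, Dmxl2 and Gm20045 were also higher, by 0.83 to 1.47, and Gm20045 was higher by 0.91 without wild-type saline replicate 2 and by 2.51 without replicate 1. Lower after MIA were Cst3, a secreted cysteine protease inhibitor, at 493 and 622 CPM and then 294 and 331 CPM (-0.89 ± 0.22), Adprh (at 106 and 128 CPM and then 62.5 and 58.0 CPM), the ribosome assembly factor Rpf2 (-1.46 ± 0.35), the centrin Cetn2 (-1.41 ± 0.35) and Rabac1 (-0.92 ± 0.23). The other nuclei held 464 and 461 CPM of Cst3 after saline and 243 and 291 CPM after MIA. These 10 genes were chosen by their p, and none passed the adjusted threshold.

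Nuclear genes of oxidative phosphorylation and genes of protein quality control sat low after MIA in wild-type members. Of 85 tested nuclear genes of oxidative phosphorylation 72 were below 0 and 13 above, with a median log2 difference of -0.39 against -0.01 over all genes. At an unadjusted p under 0.05, 21 were lower and 0 higher, or 24.7% against 5.18% of all genes, and 0 passed the adjusted test. Of 33 proteasome subunits 32 were below 0 (median -0.39, 9 lower at an unadjusted p under 0.05), and of 16 chaperonin and folding genes 16 were (median -0.38, 6 lower). Among them were Ndufa2 of complex I, at 191 and 216 CPM after saline and 119 and 120 CPM after MIA, the proteasome subunit Psma5, at 169 and 183 CPM and then 114 and 82.7 CPM, and the chaperonin subunit Cct7, at 259 and 235 CPM and then 167 and 127 CPM. Without both libraries against their labels the 3 medians were -0.29, -0.40 and -0.29. The 8 mitochondrially encoded genes tested had a median of -0.29, which turned to 0.26 (5 above 0 and 3 below) without both libraries.

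For the proteasome and chaperonin lists the wild-type saline libraries were the highest of the 8. Summed over the oxidative phosphorylation list, members held 13919 and 16985 CPM in wild type after saline, 13132 and 11332 CPM in wild type after MIA, 12637 and 11364 CPM in Csf1r-null after saline, and 10646 and 14137 CPM in Csf1r-null after MIA. Proteasome subunits summed to 5323 and 6196 CPM, 4702 and 4530 CPM, 4518 and 4298 CPM, and 4289 and 5022 CPM in the same order, so both wild-type saline libraries were above the other 6. Chaperonin and folding genes were likewise at 8120 and 8401 CPM in wild type after saline and at 5609 to 6759 CPM in the other 6 libraries. The other nuclei of the same libraries held 13526 and 16375 CPM of oxidative phosphorylation genes in wild type after saline and 11737 and 10794 CPM after MIA, so they kept the same order. Haemoglobin genes, best known from red blood cells, were also highest in wild type after saline: they summed to 656 and 624 CPM in members of these libraries and to 170 to 419 CPM in the other 6. The order of libraries was not that of the oxidative phosphorylation list. In wild type after MIA haemoglobin genes were at 325 and 419 CPM, lower in replicate 1. In the other nuclei they summed to 537 and 374 CPM in wild type after saline and to 194 to 424 CPM elsewhere, and these ranges overlapped. Barcodes with fewer than 100 UMIs, listed for replicate 1 only, held 6261816 UMIs in wild-type saline and 3203036 to 3637774 in the other groups. In these barcodes the haemoglobin gene Hbb-bs was at 591 CPM in wild type after saline and 394 CPM after MIA. In Csf1r-null it was at 496 CPM after saline and 261 CPM after MIA. Where the haemoglobin UMIs came from, and the part of blood or free RNA in the result, was not tested.

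**Figure D4:**
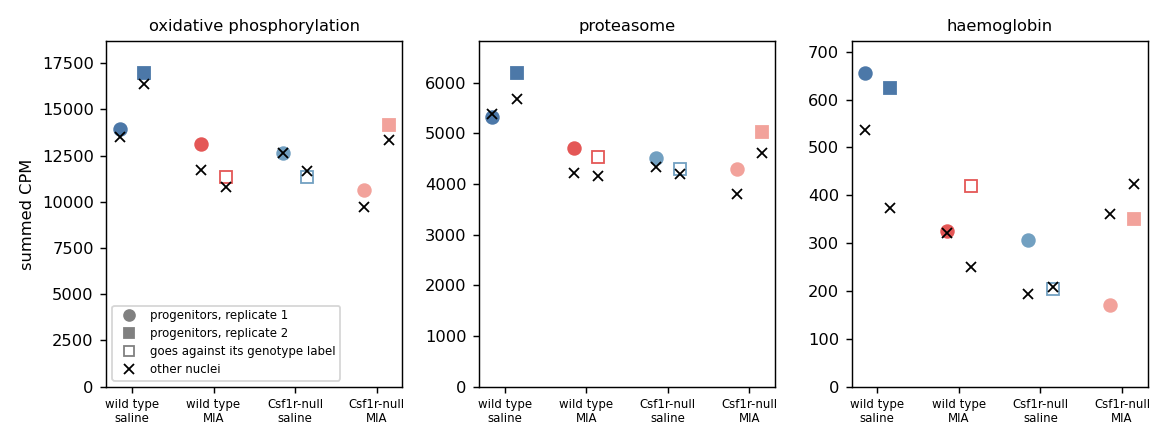
Summed CPM of oxidative phosphorylation, proteasome and haemoglobin genes per library, by group. Filled and open symbols are members (circles replicate 1, squares replicate 2, open where a library stood against its genotype label) and crosses are the other nuclei. In members the wild-type saline libraries are the highest for proteasome (5323 and 6196 CPM) and haemoglobin genes (656 and 624 CPM).

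Lists that define the cell type had medians nearer to 0. Of 29 tested neurogenic genes 16 were above 0 and 13 below in wild type after MIA (median 0.01, 1 lower at an unadjusted p under 0.05, the peroxiredoxin Prdx1). Notch pathway genes had a median of 0.09 (19 tested, 1 lower at an unadjusted p under 0.05), apical progenitor markers 0.02 (15 tested, 2 higher and 1 lower) and postmitotic neuron markers -0.01 (16 tested, 0 higher and 3 lower). Against 5.18% of all genes these were 5.26%, 20% and 18.75%, and 0 genes passed the adjusted test. Without both libraries against their labels the medians were -0.01, -0.10 (4 above 0 and 11 below) and -0.11. Among the neuron markers Tubb3 was at 614 and 568 CPM after saline and 426 and 363 CPM after MIA. S phase genes had a median of -0.15, which was -0.01 without both libraries against their labels. Endoplasmic reticulum stress, glycolysis and cytosolic ribosomal genes had medians of -0.30, -0.28 and -0.17, and migration genes 0.14. Without both libraries these were -0.27, -0.16, -0.03 (42 above 0 and 49 below) and 0.24. Interferon response genes were mostly too low to test, with 3 of 21 tested. The 22 genes that the study listed for wild-type intermediate progenitors had a median of -0.61, with 15 lower and 1 higher at an unadjusted p under 0.05. That list was chosen on these libraries and is not independent evidence of its direction.

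In Csf1r-null members 0 of 9403 genes (0%) passed in edgeR or in DESeq2 when MIA was compared with saline, and 184 (1.96%) had an unadjusted p under 0.05, 91 higher and 93 lower. Nt5dc2 had the smallest p among the higher genes, at 66.2 and 52.2 CPM after saline and 128 and 95.8 CPM after MIA (0.91 ± 0.25). Golt1b, a Golgi transport protein, was at 44.9 and 30.2 CPM and then 17.0 and 5.42 CPM (-1.66 ± 0.44, and -2.74 without Csf1r-null MIA replicate 1). Afg3l1, a mitochondrial protease gene, was at 99.3 and 87.9 CPM and then 55.5 and 47.0 CPM (-0.86 ± 0.24). Oxidative phosphorylation genes had a median of 0.06 (52 above 0 and 33 below), proteasome subunits 0.05 and chaperonin genes 0.11, and without both libraries against their labels 0.04, 0.05 and 0.08.

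The difference between the genotypes' responses was tested itself. It had 0 genes called (0%) in edgeR and in DESeq2, and 322 of 9403 genes (3.42%) at an unadjusted p under 0.05, 118 higher and 204 lower in the wild-type response. The smallest p in the lower direction was that of Ndufs8, a complex I subunit at 90.1 and 97.3 CPM in wild type after saline, 45.4 and 53.1 CPM in wild type after MIA, 36.6 and 30.2 CPM in Csf1r-null after saline and 46.4 and 70.5 CPM in Csf1r-null after MIA (-1.74 ± 0.42). Ndufa2 (-1.18 ± 0.31), the lysosomal progranulin gene Grn (-1.85 ± 0.50) and Ints12 (-1.64 ± 0.46) had the same direction. In the other direction were Phlpp2 (2.02 ± 0.58), Nkain2 (1.57 ± 0.45) and March2 (1.09 ± 0.35). Oxidative phosphorylation, proteasome and chaperonin genes had medians of -0.45, -0.43 and -0.53 between the responses, against -0.003 over all genes. Without both libraries against their labels these were -0.32, -0.45 and -0.39, against -0.05 over all genes. This comparison uses the wild-type saline libraries too, so its values are not independent of the MIA comparison in wild type.

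**Figure D5:**
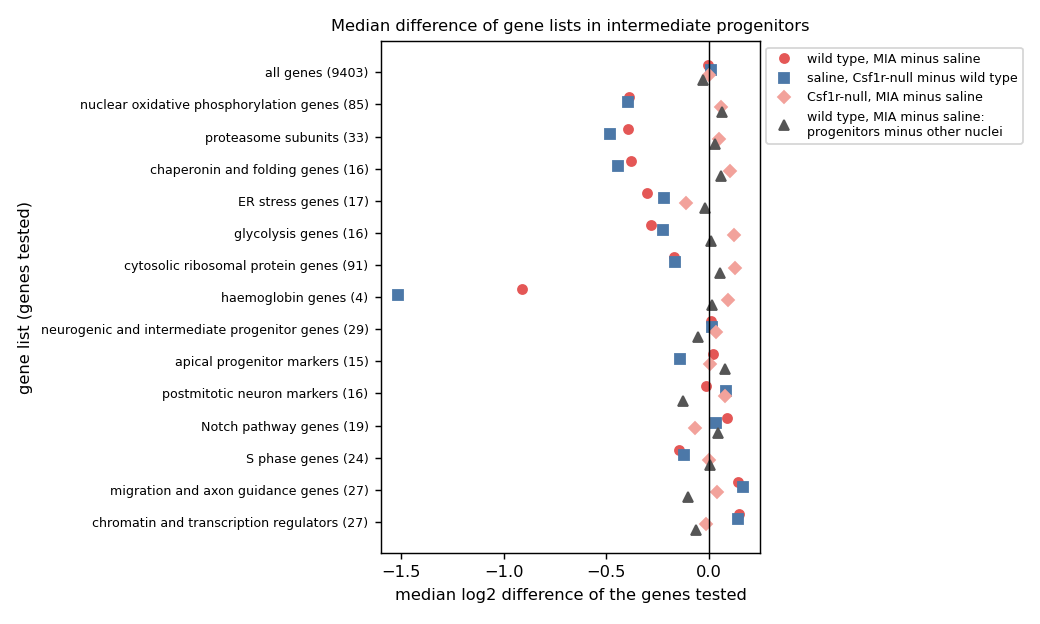
Median log2 difference of each gene list in members, with the genes tested in brackets. Symbols are MIA against saline in wild type (red circles) and in Csf1r-null (pink diamonds), Csf1r-null against wild type after saline (blue squares), and the wild-type MIA response of members minus that of other nuclei (triangles). Oxidative phosphorylation, proteasome and chaperonin lists lie at -0.38 or lower for the circles and between 0.05 and 0.11 for the diamonds.

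The genotypes were then compared within each treatment. The comparison after saline shares the wild-type saline libraries with the MIA comparison in wild type, so the 2 sets of values are not independent. After saline 0 of 9403 genes (0%) passed in edgeR and 591 (6.29%) had an unadjusted p under 0.05, 204 higher and 387 lower in Csf1r-null. With the replicate block edgeR called 6 genes, all lower in Csf1r-null: Cst3, Cd63, Itm2b, Ndufs8 and the haemoglobin genes Hbb-bt and Hba-a2 (each adjusted p = 0.0487). DESeq2 called 7, all lower: Cst3, Cd63, Itm2b, Gapdh, Hspa8, Mdk and Gm42418. Cd63, a tetraspanin of late endosomes, was at 240 and 299 CPM in wild type and 136 and 121 CPM in Csf1r-null (-1.09 ± 0.24). Cst3 was at 493 and 622 CPM against 287 and 311 CPM (-0.93 ± 0.23), and Itm2b, a membrane protein processed in the secretory pathway, at 1214 and 1449 CPM against 644 and 709 CPM. The other nuclei differed too for Cst3, at 464 and 461 CPM in wild type and 251 and 259 CPM in Csf1r-null. Whether RNA from other cells adds to these values in members was not tested.

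Higher in Csf1r-null after saline, with no adjusted call, was Kif26b, the leading gene by fold above, at 56.9 and 68.7 CPM in wild type and 143 and 132 CPM in Csf1r-null (1.11 ± 0.28). It was at 128 and 93.8 CPM in wild type after MIA and at 170 and 103 CPM in Csf1r-null after MIA, so the wild-type saline libraries held the 2 lowest values. Gm21781, Bmt2, Mark2 and Wdr37 were higher by 1.11 to 1.35. Oxidative phosphorylation, proteasome and chaperonin genes had medians of -0.39, -0.48 and -0.44 after saline, beside -0.39, -0.39 and -0.38 for MIA in wild type. Without both libraries against their labels the medians after saline were -0.38, -0.43 and -0.43.

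After MIA the genotypes had 0 genes called of 9403 (0%) in edgeR and in DESeq2 and 139 (1.48%) at an unadjusted p under 0.05, 74 higher and 65 lower in Csf1r-null. The replicate block called 2, Gm10076 and Hist1h2ap, whose values split by replicate number: Gm10076 was at 9.49 to 37.8 CPM in every replicate 1 and at 44.4 to 495 CPM in every replicate 2. Their log2 differences were 3.04 and 2.09 and turned to -0.74 and -1.24 without Csf1r-null MIA replicate 2. Hes5, a Notch effector of apical progenitors, was at 89.7 and 95.1 CPM in wild type and 58.9 and 43.4 CPM in Csf1r-null (-0.80 ± 0.25). Gpc4, a heparan sulfate proteoglycan, was at 62.5 and 69.1 CPM against 34.0 and 30.7 CPM (-0.98 ± 0.28), and Rnf2, a Polycomb ubiquitin ligase, at 15.1 and 14.8 CPM against 31.7 and 38.0 CPM (1.23 ± 0.36). None passed the adjusted test. The medians of the oxidative phosphorylation, proteasome and chaperonin lists were 0.01, 0.06 and 0.04 between the genotypes after MIA. They were -0.04, 0.04 and -0.04 without both libraries against their labels.

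The last comparison asked whether the members responded to MIA otherwise than the remaining nuclei of the same libraries. In wild type 0 of 9403 genes (0%) passed in edgeR and in DESeq2 and 452 (4.81%) had an unadjusted p under 0.05, 176 higher and 276 lower in the members' response. Oxidative phosphorylation, proteasome and chaperonin genes had medians of 0.07, 0.03 and 0.06 in this difference. Without both libraries against their labels these were 0.12, 0.08 and 0.08. Ank3, the ankyrin of the axon initial segment, was at 288, 254, 283 and 214 CPM in wild-type members (saline 1 and 2, MIA 1 and 2) and at 608, 684, 964 and 834 CPM in the other nuclei (-0.65 ± 0.16, and -0.34 without wild-type saline replicate 1). Ccnd2 was at 580, 433, 629 and 494 CPM in members and at 484, 192, 228 and 247 CPM in the other nuclei (0.54 ± 0.16, and 0.15 without wild-type saline replicate 1 or 0.92 without replicate 2). The high value of the other nuclei there was that of wild-type saline replicate 1, the library rich in interneuron markers, and the same held for Nrxn3 (452 CPM against 124 to 141 CPM). Without both libraries against their labels, where wild-type MIA had 1 library and the spread came from the other groups, edgeR called 4 genes, of which Rdx and Tle4 had log2 differences of 0.61 and -0.73 over all libraries and 0.14 and -0.12 without wild-type MIA replicate 1. The 4 were Dqx1, Rdx, Tle4 and Dlx6os1, the last a transcript of interneurons at 103 CPM in members of wild-type saline replicate 1 and 0 to 12.7 CPM in those of the other libraries.

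In Csf1r-null the same difference had 0 genes called (0%) in edgeR and in DESeq2 and 435 of 9403 (4.63%) at an unadjusted p under 0.05, 214 higher and 221 lower. Ntm (chr9:28994750-29963141) was nearest, at 121 and 93.4 CPM in members after saline and 49.8 and 83.2 CPM after MIA, while the other nuclei were at 672 and 955 CPM and then 885 and 974.6 CPM. Its log2 difference was -1.06 ± 0.23 with an adjusted p of 0.212 in edgeR, and -1.36 with an adjusted p of 0.00187 without both libraries against their labels, where Csf1r-null saline had 1 library and the spread came from the other groups. Without Csf1r-null saline replicate 1 it was -0.48. Nme1, a nucleoside diphosphate kinase, was higher by 0.68 ± 0.17 and the ribosomal gene Rpl24 by 0.42 ± 0.12. Cytosolic ribosomal genes had a median of 0.17 (82 of 91 above 0, 11 higher at an unadjusted p under 0.05). Over all genes 4641 of 9403 were above 0. Oxidative phosphorylation genes (60 of 85 above 0) and proteasome subunits (25 of 33) had the same direction. The ribosomal list did so in wild type too, with 62 of 91 above 0 (median 0.05). Without both libraries against their labels its wild-type median was 0.15, with 82 above 0 and 9 below.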

How the data were processed

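The authors deposited UMI counts per gene and barcode, made with Cell Ranger against mm10 and not normalized. The labels name version 3.1.0, the file headers 3.1.0 (replicate 1, all 6794880 barcodes) or 6.0.1 (replicate 2, called barcodes). Genes were joined by Ensembl identifier (30406), and positions are those of GRCm38. The study's minimum of 500 UMIs and 200 genes per barcode was used. Doublets were kept in the main values. Removing the 1917 highest Scrublet scores (scanpy 1.11.5) was an alternative and took 144 members. The members, lists and tests were chosen with earlier results of these data known. Leading genes were the 20 of largest fold at 50 CPM or more in members and 8 of 8 libraries, and the 10 lower ones at 100 CPM or more in other nuclei. Per comparison, the 5 genes each way with the smallest p at 20 CPM or more were named, with list members and the genes an alternative called. Genes shown for the split of members, and the stretch between the starts of Snhg18 and Sema5a, were picked after their values were seen. Some genes that these rules name are not reported here.

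Sums of UMIs over each class of a library were tested with edgeR 4.0.16 (quasi-likelihood, TMM, filterByExpr by group, 1 model over 4 groups, R 4.3.3) with Benjamini-Hochberg adjustment over all 9403 genes. The members' response minus that of other nuclei had library as a block. The test was tried on simulated data. DESeq2 1.42.0, no filter, a replicate block, and leaving out each library were alternatives. The study's nucleus-level test NEBULA was not run. Its authors also report similar results from DESeq2 on summed (pseudobulk) counts. List medians of levels use log2(CPM + 1). Exact permutation tests (two-sided) compared shares. Deviations of equal replicate numbers from group means correlated at 0.380 to 0.567 in all 6 pairs of groups over 4332 genes. Libraries of the same number thus shared a shift. Each number also shared its software and gene list, so a batch and a pairing of particular samples cannot be told apart. The main tests have no term for this shift, and the replicate block is given beside them as an alternative. Depth limits the sums to 363873 to 991876 UMIs per library.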

Additional observations from a re-analysis of the deposited data

How the results depend on the processing

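The share of members after MIA stayed above saline in all alternatives run, from 0.948 points without both libraries against their labels to 2.18 points without Csf1r-null MIA replicate 2, and 0.977 points with stricter members. Leaving out nuclei with interneuron markers, an alternative chosen after seeing the data, gave 1.48 points. The genotype difference in share ranged from -1.08 to 0.0516 points when 1 library was left out (positive without wild-type MIA replicate 2) and was 0.557 without both libraries against their labels. The neuron factor difference (2.01 points) ranged from -0.8997 (without wild-type saline replicate 1) to 3.73 points when 1 library was left out (-0.6935 without Csf1r-null MIA replicate 2), and was 5.71 at 1500 UMIs and 5.01 without both libraries against their labels. The apical factor difference (-1.69 points) ranged from -3.88 to -0.491 points when 1 library was left out. The S phase difference (-3.92 points) ranged from -5.58 to -2.28 points in the same way. At full depth the S phase difference was 1.18 points, and at 1500 UMIs it was 0.346. The cause was not tested.

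Against 0 genes called, no filter on low counts gave 8 (MIA in wild type), 6 (interaction), 10 (genotypes after saline), 2 (genotypes after MIA) and 2 (members minus other nuclei in wild type). DESeq2 gave 7 after saline. The replicate block gave 2, 6 and 2 (MIA in wild type, genotypes after saline, genotypes after MIA) and changed no other call. Without both libraries against their labels, members minus other nuclei gave 4 in wild type and 1 in Csf1r-null. Leaving out 1 library gave 0 to 3 (MIA in wild type, without wild-type saline replicate 2), 0 to 2 (interaction, same library), 0 to 2 (genotypes after saline, same library), 0 to 9 (members minus other nuclei in wild type: 9 without the same library, 4 without wild-type MIA replicate 2, and 1 each without wild-type saline replicate 1, wild-type MIA replicate 1 or Csf1r-null MIA replicate 2) and 0 to 2 (the same in Csf1r-null: 2 without Csf1r-null MIA replicate 2 and 1 without Csf1r-null saline replicate 2). Groups of 2 libraries and sums of under 1000000 UMIs limit what could be detected.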
